A study of Mus musculus with 12 samples.

Results

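Heat shock chaperones are proteins that help other proteins fold, and 10 of their genes were followed here in the hearts of early mouse embryos: Hsph1, Hspa4, Hspa8, Hspa5, Hsp90aa1, Hsp90ab1, Hspd1, Hspe1, Dnaja1 and Dnajb1. They were found by symbol in the annotation of the array, and each gene was read from the probe set that carries its symbol alone and has the highest mean over all arrays. By that rule 9 of the 10 genes were measured, of 19938 genes in all, and Hsp90ab1 was not analysed here. The data were 12 Affymetrix arrays of hearts dissected at E8.75 (E for embryonic day), with 3 arrays each of wild type (WT) hearts, Nkx2-5 KO hearts, Tbx5 KO hearts and hearts carrying the Tbx5 KO together with the Nkx2-5 KO, called double KO below. Nkx2-5 and Tbx5 are transcription factors of the developing heart. No treatment, sex, strain or allele is given in the labels, and they do not say how many embryos went into an array. The titles number the arrays as biological replicates. All values are log2 expression, so a difference of 1 is a change of 2-fold. A gene was called when its p from limma, adjusted across the 19938 genes of a comparison by the method of Benjamini and Hochberg, was under 0.05.

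Chaperones of the Hsp70 family bind exposed stretches of unfolded proteins and let go of them in a cycle of ATP hydrolysis. J proteins start that cycle by delivering the client, and Hsp110 proteins end it by exchanging the nucleotide. Hsp90 takes over signalling proteins and other late folding clients, assisted by its own co-chaperones. In mitochondria a barrel made of Hsp60 (the product of Hspd1), closed by a lid of Hsp10 (Hspe1), folds imported proteins. Most of these genes are active in unstressed cells, and many are raised further by heat shock factors, which bind repeats of the letters GAA in alternating orientation. The copy in the endoplasmic reticulum, Hspa5 (BiP), answers instead to the unfolded protein response.

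Promoter windows from RefSeq (build GRCm38.p6, 250 bases before to 50 after each start site) were present for 7 of the 10 genes, in 12 windows. Both strands of each window were searched for a heat shock element of 3 repeats (GAANNTTCNNGAA). It was in 2 of 2 windows of Hsph1, 1 of 2 of Hspd1 and 1 of 1 of Hspe1, against 0.608% of all 32544 windows of the same length. A shorter element of 2 repeats (GAANNTTC or TTCNNGAA), which lies inside the longer element too, was in the same windows and in 1 of 3 of Dnaja1, against 15.1% of all windows. Hspa5 held an ER stress element (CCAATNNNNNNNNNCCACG), at position -65 from its start, that 0.12% of all windows hold. Windows of Hspa4 and Dnajb1 held none of these. The T-box letters AGGTGTGA were in the windows of 0 members (1.28% of all windows). The NKX letters TNAAGTG were in 1 of 2 windows of Hsph1, 1 of 2 of Hspd1 and 1 of 1 of Hspe1 (11.5% of all windows). Those of Hspd1 and Hspe1 are the same bases read on opposite strands. A match of letters is a description of the window and says nothing of binding. Of the windows with a match, 3 are printed: the first of Hsph1, the member with the largest fall, that of Hspe1, which shares its elements with Hspd1, and that of Hspa5, which has the other kind of element. They run 5′ to 3′ on the strand of the gene, with heat shock elements or the ER stress element in capitals:
Hsph1, chr5:149636287-149636586, minus strand: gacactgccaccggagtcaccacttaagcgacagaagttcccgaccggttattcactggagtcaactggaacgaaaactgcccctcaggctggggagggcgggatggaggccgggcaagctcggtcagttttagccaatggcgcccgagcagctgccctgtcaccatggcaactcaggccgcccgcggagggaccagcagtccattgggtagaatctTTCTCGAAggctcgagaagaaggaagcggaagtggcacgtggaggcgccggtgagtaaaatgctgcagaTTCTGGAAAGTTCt
Hspe1, chr1:55087898-55088197, plus strand: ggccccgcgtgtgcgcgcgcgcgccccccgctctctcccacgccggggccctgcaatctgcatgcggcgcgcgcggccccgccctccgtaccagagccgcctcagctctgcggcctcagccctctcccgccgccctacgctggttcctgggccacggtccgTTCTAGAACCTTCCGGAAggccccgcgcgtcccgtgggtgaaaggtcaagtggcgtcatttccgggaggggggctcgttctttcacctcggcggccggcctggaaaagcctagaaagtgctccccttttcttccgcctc
Hspa5, chr2:34771840-34772139, plus strand: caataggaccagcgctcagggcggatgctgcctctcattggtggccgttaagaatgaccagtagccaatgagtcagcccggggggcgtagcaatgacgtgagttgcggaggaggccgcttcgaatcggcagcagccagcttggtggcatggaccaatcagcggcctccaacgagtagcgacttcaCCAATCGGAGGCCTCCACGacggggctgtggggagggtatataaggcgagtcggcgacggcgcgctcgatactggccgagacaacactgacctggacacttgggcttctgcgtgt
The capitals near the end of the Hsph1 window begin 37 bases after the start site. Hspd1 and Hspe1 lie head to head, and the window of the second Hspd1 start (chr1:55087883-55088182, minus strand) covers nearly the same bases on the other strand, so both genes share the same elements.

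Several facts of the arrays touch every result below. Array medians were 8.05 to 8.25, while the SD over probe sets was 2.05 to 2.10 on double KO arrays and 2.17 to 2.19 on WT arrays, so the brightest and dimmest probe sets lay closer together in double KO hearts. Xist, which is transcribed from an inactive X chromosome, was 11.50 to 11.87 on WT and 11.46 to 12.32 on Tbx5 KO arrays, against 6.59 to 7.03 on Nkx2-5 KO and 6.44 to 8.16 on double KO arrays, and the Y-linked gene Eif2s3y ran the other way. The sex of the embryos and the Nkx2-5 genotype therefore cannot be told apart, whereas WT and Tbx5 KO arrays share 1 pattern and Nkx2-5 KO and double KO arrays the other. In the order WT, Tbx5 KO, Nkx2-5 KO and double KO, the Nkx2-5 probe set gave means of 9.35, 9.35, 8.94 and 9.08, and the Tbx5 probe set 10.06, 10.53, 10.32 and 10.60; the labels do not name the removed parts, and neither value checks a genotype. Heart muscle was present throughout, with a mean over 10 of 10 cardiomyocyte markers of 13.30 to 13.36 on WT arrays and 13.24 to 13.27 on double KO arrays, where 3 of the 10 were called higher and 2 lower than in WT. Embryonic red cell RNA varied widely: the mean over 6 measured erythroid markers of 8 was 10.32 to 11.69 in WT, 9.50 to 10.42 in double KO, 10.50 to 11.22 in Nkx2-5 KO and 10.72 to 10.75 in Tbx5 KO hearts, with 3 of the 6 lower and 0 higher in double KO than in WT hearts. Trophoblast and decidua markers (8 of 11 measured) gave means of 7.14 to 7.30 in Tbx5 KO hearts and 6.20 to 6.42 elsewhere, with 2 of the 8 higher in Tbx5 KO than in WT hearts. Beside these marker counts, 9.05% of all genes were called higher and 14.4% lower in double KO than in WT hearts. In Tbx5 KO hearts 0.998% of all genes were called higher than in WT. The part of these markers and of sex in the results below was not tested.

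Hsph1 had the largest fall of the 9 genes. It encodes Hsp105, an Hsp110 protein that acts as a nucleotide exchange factor for Hsp70. Its level was 11.54, 11.52 and 11.65 on the WT arrays, 11.01, 11.04 and 11.18 in Tbx5 KO, 10.57, 10.68 and 10.60 in Nkx2-5 KO, and 9.88, 9.71 and 10.21 in double KO hearts. The 4 groups did not overlap anywhere, and they stood in the order WT, Tbx5 KO, Nkx2-5 KO, double KO. Against WT, Hsph1 fell by 0.95 ± 0.12 (SE, n = 3 arrays a group) in Nkx2-5 KO hearts, 1.93-fold (limma adjusted p = 0.00142), and by 1.64 ± 0.12 in double KO hearts, 3.11-fold (adjusted p = 5.79e-06). In Tbx5 KO hearts the difference from WT was -0.49 ± 0.12, with an adjusted p of 0.0515 that missed the threshold and a 95% interval from -0.75 to -0.236. These are RNA levels of whole hearts, in which fewer cells of a type and less RNA per cell cannot be told apart.

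Hsph1 was lower in double KO hearts than in either other mutant. Double KO hearts were below Nkx2-5 KO hearts by 0.69 ± 0.12 on the log2 scale, with a limma adjusted p of 0.00588, and below Tbx5 KO hearts by 1.14 ± 0.12 (adjusted p = 0.000123). The former comparison is between groups with the same sex-linked pattern. The latter is between groups with opposite patterns, so sex and the Nkx2-5 KO cannot be told apart in it. Setting the double KO change against the summed changes of both other mutants gives a non-additive term, which was -0.19 ± 0.17 with an interval from -0.558 to 0.17, and it was not called (adjusted p = 0.814). Nkx2-5 KO and Tbx5 KO hearts differed by -0.46 ± 0.12, also not called (adjusted p = 0.0701). Of the 517 genes called lower in Nkx2-5 KO than in WT hearts, 76 fell further than Hsph1, and of the 2868 called lower in double KO hearts, 105 did. The 4 calls of Hsph1 held in 22 of 22 alternative analyses each. The missed call in Tbx5 KO hearts turned to called in 8 of 22, among them the fits without double KO replicate 2 or 3, where the adjusted p over all fits that leave out 1 array was 0.0154 to 0.165.

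**Figure D1:**
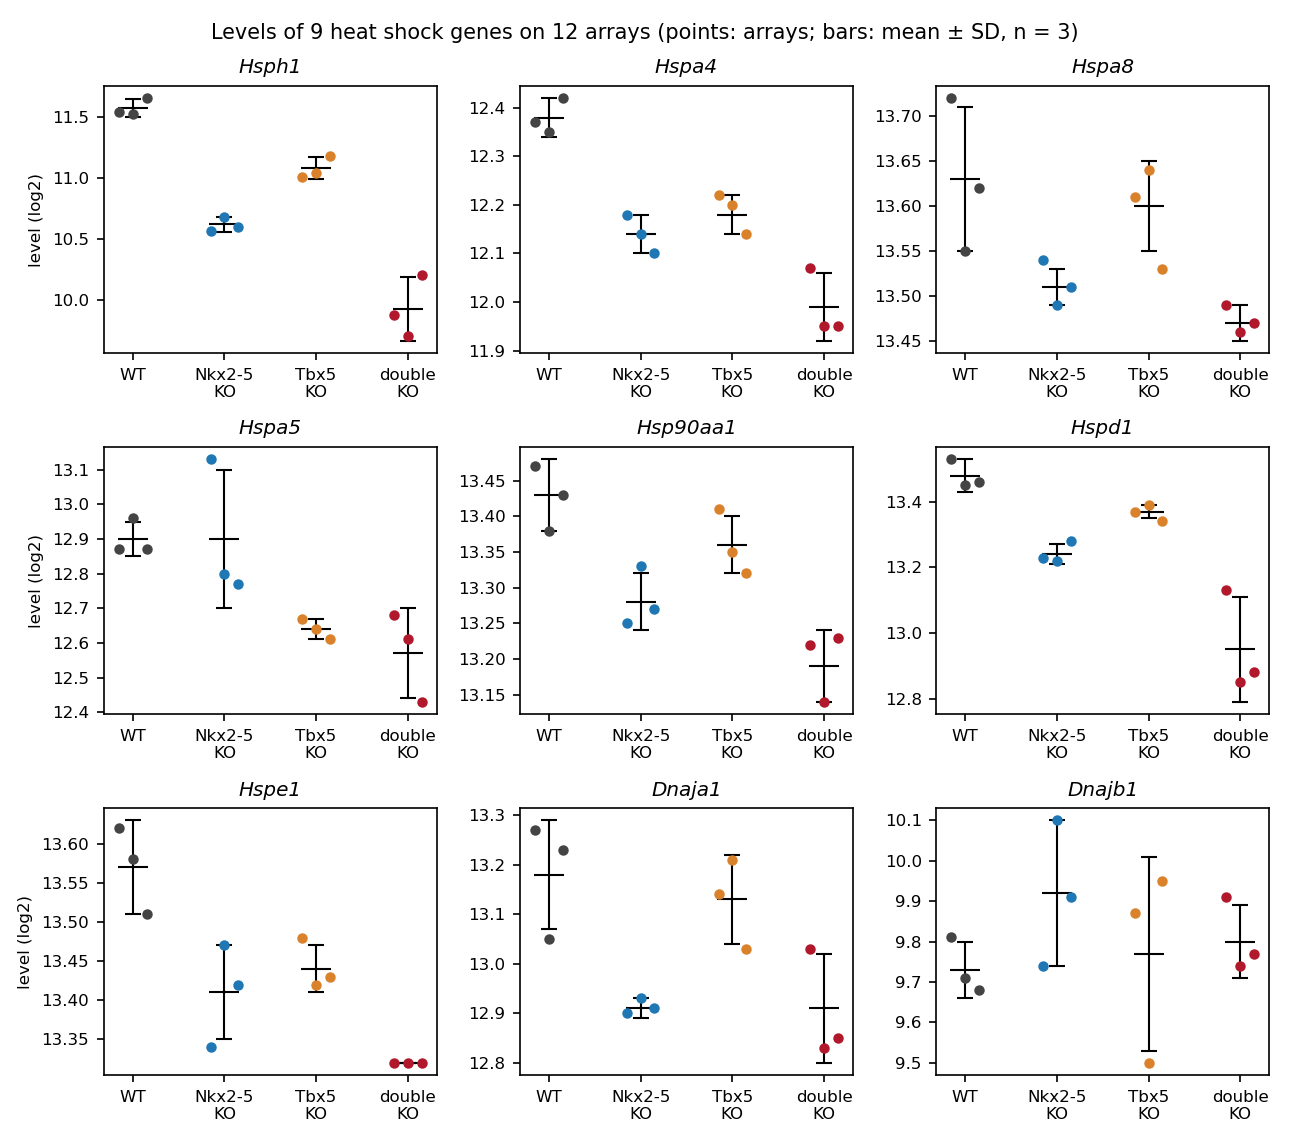
Level of each of the 9 measured chaperone genes on every array (log2, vertical axis, with a separate scale that does not start at 0 in each panel) by group; each point is 1 of 3 arrays and the bars are the group mean ± SD. Hsph1 stepped down from a mean of 11.57 in WT to 9.93 in double KO hearts with no overlap between groups, while Dnajb1 stayed between 9.50 and 10.10 on all arrays.

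Hspa4, the other Hsp110 protein, is the constitutive relative of Hsph1. It read 12.37, 12.35 and 12.42 in WT, 12.22, 12.20 and 12.14 in Tbx5 KO, 12.18, 12.14 and 12.10 in Nkx2-5 KO and 12.07, 11.95 and 11.95 in double KO hearts. All mutant arrays were below all WT arrays, and the Nkx2-5 KO and Tbx5 KO arrays overlapped each other. Hspa4 fell by 0.39 ± 0.08 in double KO hearts against WT, 1.31-fold (limma adjusted p = 0.00346). The differences of -0.24 ± 0.08 in Nkx2-5 KO (adjusted p = 0.106) and -0.20 ± 0.08 in Tbx5 KO hearts (adjusted p = 0.25) were not called. Its call in double KO hearts was lost in 1 of 22 alternatives, after a further quantile normalization, at an adjusted p of 0.0604 and a change of -0.21.

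Among the Hsp70 proteins, Hspa8, the abundant constitutive cytosolic Hsc70, did not pass the test in any comparison. It read 13.72, 13.55 and 13.62 in WT, 13.61, 13.64 and 13.53 in Tbx5 KO, 13.54, 13.49 and 13.51 in Nkx2-5 KO and 13.49, 13.46 and 13.47 in double KO hearts. Double KO arrays lay just under all WT arrays, and the difference of -0.16 ± 0.08 (adjusted p = 0.179) had an interval from -0.33 to 0.018. It became called with each array centred on its median (-0.28, adjusted p = 0.0195) and with an intensity trend.

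Hspa5, the Hsp70 of the endoplasmic reticulum, followed another pattern. Its values were 12.87, 12.96 and 12.87 in WT and 13.13, 12.80 and 12.77 in Nkx2-5 KO hearts, which overlapped. Tbx5 KO hearts gave 12.67, 12.64 and 12.61, and double KO hearts 12.68, 12.61 and 12.43. Both groups that carry the Tbx5 KO were below every array of the other groups. Hspa5 fell by 0.33 ± 0.11 in double KO hearts against WT (1.26-fold, limma adjusted p = 0.0438). At -0.26 ± 0.11 in Tbx5 KO (adjusted p = 0.264) and -0.33 ± 0.11 between double KO and Nkx2-5 KO hearts (adjusted p = 0.1) it was not called, nor was it at -0.00 ± 0.11 in Nkx2-5 KO hearts (adjusted p = 0.996). The call in double KO hearts was kept in 11 of 22 alternatives; it ended without any of the WT arrays, any of the Tbx5 KO arrays, or double KO replicate 2 or 3 (adjusted p up to 0.128), and after a further quantile normalization (adjusted p = 0.366, change -0.16), with array weights (0.0697) and with the arrays of those groups alone (0.0568).

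Hsp90aa1, the stress-inducible cytosolic Hsp90, read 13.47, 13.38 and 13.43 in WT, 13.41, 13.35 and 13.32 in Tbx5 KO, 13.25, 13.33 and 13.27 in Nkx2-5 KO and 13.22, 13.14 and 13.23 in double KO hearts. The double KO arrays were below all others, by little. Hsp90aa1 fell by 0.23 ± 0.08 there against WT (1.18-fold, limma adjusted p = 0.047). That call ended when any 1 of the 12 arrays was left out (adjusted p 0.052 to 0.146), after quantile normalization (0.161), with the arrays of those groups alone (0.104), with the replicate block (0.0835) and with the probe set among genes of its own chromosome (0.0563). It was kept in 6 of 22 alternatives.

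Both subunits of the mitochondrial chaperonin fell in double KO hearts. The estimated fall was larger for the barrel than for the lid, a difference that was not tested. Hspd1 read 13.53, 13.45 and 13.46 in WT, 13.37, 13.39 and 13.34 in Tbx5 KO, 13.23, 13.22 and 13.28 in Nkx2-5 KO and 13.13, 12.85 and 12.88 in double KO hearts. Like those of Hsph1, its 4 groups did not overlap and stood in the same order. With its other probe set the group means kept that order, but WT replicate 2 and Tbx5 KO replicate 2 both read 12.48. Hspd1 fell by 0.53 ± 0.09 in double KO hearts against WT, 1.44-fold (limma adjusted p = 0.00118), in 22 of 22 alternatives. It was also lower by 0.42 ± 0.09 than in Tbx5 KO hearts (adjusted p = 0.0109), a call that ended without double KO replicate 2 (adjusted p = 0.0528) and with the arrays of those groups alone (adjusted p = 0.0536). Against Nkx2-5 KO hearts the difference was -0.29 ± 0.09 (adjusted p = 0.0818).

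Hspe1, the lid, read 13.62, 13.58 and 13.51 in WT, 13.48, 13.42 and 13.43 in Tbx5 KO, 13.34, 13.47 and 13.42 in Nkx2-5 KO and 13.32 on each of the double KO arrays. All mutant arrays were below all WT arrays. Hspe1 fell by 0.25 ± 0.08 in double KO hearts (1.19-fold, limma adjusted p = 0.0376), and differences of -0.16 ± 0.08 in Nkx2-5 KO and -0.13 ± 0.08 in Tbx5 KO hearts were not called (adjusted p = 0.322 and 0.51). The call was kept in 11 of 22 alternatives, and ended without any of the WT arrays, any of the double KO arrays, or Tbx5 KO replicate 1 or 2 (adjusted p up to 0.116), after quantile normalization (0.0921), with the arrays of those groups alone (0.0851) and with the replicate block (0.0709).

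The J proteins deliver clients to Hsp70. Dnaja1, a cytosolic partner of Hsc70, read 13.27, 13.05 and 13.23 in WT, 13.14, 13.21 and 13.03 in Tbx5 KO, 12.90, 12.93 and 12.91 in Nkx2-5 KO and 13.03, 12.83 and 12.85 in double KO hearts. The Nkx2-5 KO and double KO arrays were below all WT arrays, while Tbx5 KO and WT arrays overlapped. Dnaja1 fell by 0.28 ± 0.09 in double KO hearts against WT (1.21-fold, limma adjusted p = 0.0489), and the difference of -0.27 ± 0.09 in Nkx2-5 KO hearts was not called (adjusted p = 0.132). Only 7 of 22 alternatives kept the call: it ended without any of the Nkx2-5 KO arrays, double KO replicate 2 or 3, Tbx5 KO replicate 1 or 2, or WT replicate 1 or 3 (adjusted p up to 0.154). It also ended after quantile normalization (adjusted p = 0.278), with the arrays of those groups alone (0.105), with the replicate block (0.073) and with the mean of its probe sets (-0.115, 0.361), and with its other probe set the value turned to 0.05 (0.749). Dnajb1 (Hsp40), whose transcript is strongly raised by heat shock, did not follow the others. It read 9.81, 9.71 and 9.68 in WT, 9.87, 9.50 and 9.95 in Tbx5 KO, 9.74, 10.10 and 9.91 in Nkx2-5 KO and 9.91, 9.74 and 9.77 in double KO hearts, and the groups overlapped throughout. Its difference between double KO and WT hearts was 0.07 ± 0.13 (adjusted p = 0.714), with an interval from -0.205 to 0.348.

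Counted over the 9 measured genes, 7 were called lower and 0 higher in double KO than in WT hearts, where 14.4% of all genes were called lower and 9.05% higher. The uncalled members were Hspa8 and Dnajb1. In Nkx2-5 KO hearts 1 of 9 was called lower, Hsph1, against 2.59% of all genes lower and 1.84% higher, and in Tbx5 KO hearts 0 of 9, against 1.31% lower and 0.998% higher. Double KO hearts had 1 of 9 lower than Nkx2-5 KO hearts (4.55% of all genes lower, 1.01% higher) and 2 of 9 lower than Tbx5 KO hearts (7.86% lower, 2.87% higher). Between Nkx2-5 KO and Tbx5 KO hearts 0 of 9 were called (1.37% of all genes higher and 1.01% lower in Nkx2-5 KO), and for the non-additive term 0 of 9 (0.547%). The number called in double KO hearts moved with the analysis, to 2 after a further quantile normalization (Hsph1 and Hspd1) and to 3 with the arrays of those groups alone. Leaving out double KO replicate 2 or 3, WT replicate 1 or 3, or Tbx5 KO replicate 1 or 2 gave 3, and leaving out WT replicate 2 gave 4. The members called lower in Nkx2-5 KO hearts stayed at 1 when any array was left out.

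The median change of the 9 genes was -0.279 in double KO hearts, against 0.064 for all genes, -0.159 in Nkx2-5 KO hearts, against 0.005, and -0.113 in Tbx5 KO hearts, against 0.01. In double KO hearts the arrays lay wholly below the WT arrays for 8 of the 9 genes, as they did for 18.7% of all genes. That count was 7 of 9 in Nkx2-5 KO hearts (12.6% of all genes) and 5 of 9 in Tbx5 KO hearts (11.4%). These shares were not counted for the bright genes described below. With another of their probe sets, also below, the double KO and WT arrays of Hspa8 and Dnaja1 overlapped. The order of group means WT, Tbx5 KO, Nkx2-5 KO, double KO, from high to low, held for 7 of the 9 genes and for 10.4% of all genes. Hspa5 and Dnajb1 were the exceptions. That order is the one seen above in Hsph1, itself among the 7, and for Dnaja1 its last step was -0.007. It also puts both groups of 1 sex-linked pattern above both groups of the other. Of the neighbours in that order, Nkx2-5 KO and double KO differed beyond the threshold for Hsph1, and no other pair did for any of the 7. The KO comparisons share the WT arrays, so their values are side by side and not independent.

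**Figure D2:**
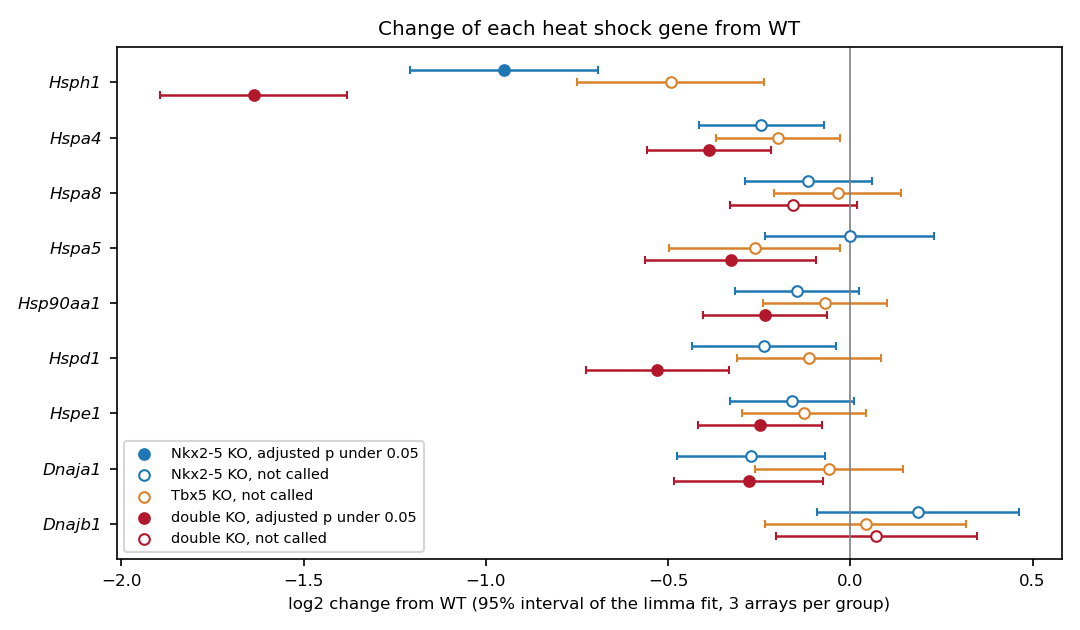
Change of each of the 9 measured chaperone genes against WT (log2 difference of group means, horizontal axis) in the 3 mutant groups; bars are 95% intervals from the fit and filled points mark an adjusted p under 0.05. Hsph1 lies at -0.95, -0.49 and -1.64, and 7 genes are filled for double KO hearts.

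The share of genes called lower also differed with brightness. With the exception of Hsph1 and Dnajb1, the members had a mean of at least 12 over the arrays, as did 722 genes in all. Among those 722 bright genes the median change in double KO hearts was -0.159 and 38.1% were called lower, against 14.4% of all genes. Of the 190 genes with a mean of at least 13, which include 5 members, 25.3% were called lower there. Their median change was -0.083. The 7 bright members lay between -0.16 and -0.53, and 6 of them were called. Hsph1, with a mean level of 10.80, is outside this bright class. In Nkx2-5 KO hearts the bright genes had a median of -0.055 (4.71% lower), and in Tbx5 KO hearts of -0.05 (0.97% lower). Whether the narrower spread of double KO arrays contributes to the small falls of the bright members was not tested, beyond the quantile normalization above, which gives all arrays the same spread. Under it Hspd1 (-0.42) kept its call, and the 5 other called bright members lost theirs: Hspa4 was then at -0.21, Hspe1 at -0.18, Hspa5 at -0.16, Hsp90aa1 at -0.15 and Dnaja1 at -0.145 (adjusted p from 0.0604 to 0.366). Hsph1, outside the bright class, kept its call at -1.49.

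The choice of probe set matters for 5 of the 9 genes. Hspa8 and Hsp90aa1 have 3 probe sets each under their symbol, and Hspd1, Hspe1 and Dnaja1 have 2. Probe set numbers on this array follow the chromosomes: for 96.6% of 21695 probe sets, most of the 20 neighbours in number order belonged to genes on the same chromosome. For each of the 5 genes the brightest probe set, used above, had 0 or 1 of 20 such neighbours, whereas 1 of its other probe sets had 19 or 20. Genes of this kind have many processed pseudogenes in the mouse genome, and which copy a probe set matches was not tested.

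In double KO against WT, the probe sets placed among genes of their own chromosome gave the same direction for Hspd1, Hspe1 and Hsp90aa1. The direction there was the other one for Hspa8 and Dnaja1. In a fit with that probe set for every gene, an alternative chosen after the data had been seen, Hspd1 fell by 0.62 in double KO hearts against WT (adjusted p = 0.00213). Hspe1 fell by 0.30 (adjusted p = 0.0181), and Hsp90aa1 was -0.23 with an adjusted p of 0.0563. Hspa8 was 0.13 (adjusted p = 0.442), from arrays at 12.59, 12.18 and 12.37 in WT and 12.55, 12.57 and 12.40 in double KO hearts, which overlapped. Dnaja1 was 0.05 (adjusted p = 0.749), from 11.42, 11.41 and 11.16 in WT and 11.43, 11.41 and 11.29 in double KO hearts. Its Nkx2-5 KO arrays, at 10.97, 11.17 and 11.09, overlapped those of WT hearts. The Nkx2-5 KO difference from WT was still -0.25, beside -0.27 with the brightest probe set, and was called neither here nor in the main fit. With these probe sets 5 of 9 members were called lower in double KO hearts, and 5 of 9 kept the order of group means given above (10.4% of all genes). The fall of Hsph1, Hspa4 and Hspa5 rests on the only probe set each has, which lay among genes of its own chromosome with 18 to 20 of 20 neighbours.

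The rest of the folding machinery was read from 9 lists with 141 measured genes of 148. In double KO hearts 57 of the 141 were called lower (40.4%) and 5 higher (3.55%), with a median change of -0.215, beside 14.4% lower and 9.05% higher of all genes. In Nkx2-5 KO hearts 11 were lower (7.8%, beside 2.59% of all genes) and 3 higher (2.13%, beside 1.84%). In Tbx5 KO hearts 2 were lower (1.42%), a share near the 1.31% of all genes, and 0 higher. Against Nkx2-5 KO hearts, double KO hearts had 16 lower (11.3%, beside 4.55% of all genes) and 0 higher, and against Tbx5 KO hearts 28 lower (19.9%, beside 7.86%) and 3 higher (2.13%, beside 2.87%). Between Nkx2-5 KO and Tbx5 KO hearts 2 were higher and 2 lower (1.42% each, beside 1.37% and 1.01% of all genes). Only Dnajc24 of the 141 was called for the non-additive term, at -0.76 ± 0.13 (limma adjusted p = 0.0216). Each list's count in double KO hearts is to be read against the same 14.4% lower of all genes. The 38.1% lower of bright genes is for genes with a mean of at least 12. The lists also hold dimmer genes, such as Hspb8 and Hspa1a. How many of the 141 genes reach that mean was not counted, nor the share called among those. The part of brightness in the 40.4% was not tested. Some lists share genes, and the genes below were not refitted under the alternatives.

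Of 18 measured Hsp90 paralogs and co-chaperones, 11 fell and 0 rose in double KO hearts, and 4 fell and 0 rose in Nkx2-5 KO hearts. Ahsa1, which speeds up the ATPase of Hsp90, was 12.51 ± 0.06 (SD, n = 3) in WT, 12.02 ± 0.08 in Tbx5 KO, 11.58 ± 0.20 in Nkx2-5 KO and 11.03 ± 0.36 in double KO hearts. It fell by 0.93 ± 0.16 in Nkx2-5 KO (adjusted p = 0.0083) and by 1.48 ± 0.16 in double KO hearts (adjusted p = 5.14e-05). Stip1 (Hop), which bridges Hsp70 and Hsp90, fell by 0.89 ± 0.10 in double KO hearts, and Cacybp, a partner of the ubiquitin ligase Siah1, by 1.23 ± 0.12. The prolyl isomerase Ppid fell by 0.53 ± 0.10 in Nkx2-5 KO hearts.

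Of 10 other Hsp70 and Hsp110 proteins, 6 fell in double KO hearts and 1 rose. Hspa4l, the third Hsp110 protein, fell by 0.85 ± 0.16, Hspa13 by 0.89 ± 0.15 and Hspa2, best known from male germ cells, by 0.85 ± 0.16. Hspa1a, the classical heat-inducible Hsp70, rose by 0.40 ± 0.13 (limma adjusted p = 0.0386), from 9.12 ± 0.10 in WT to 9.52 ± 0.27 in double KO hearts. Of 6 heat shock factors and regulators, 4 were measured, and Hsf1 and Hsbp1l1 were not. Among the 4 only Hsbp1, which binds the trimer of heat shock factor, was called, at -0.29 ± 0.09 in double KO hearts.

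The 13 exchange factors and other co-chaperones of Hsp70 had 5 lower and 0 higher in double KO hearts, led by Bag1 (-0.53 ± 0.09), Bag5 (-0.52 ± 0.12) and Grpel1 (-0.47 ± 0.12), the exchange factor of mitochondria. Of 43 other J proteins 12 fell and 2 rose. Dnajc9, which also chaperones histones, fell by 1.23 ± 0.15, Dnajc3, an inhibitor of the kinases that phosphorylate eIF2 alpha, by 1.03 ± 0.13, and Dnajc15, of the inner mitochondrial membrane, by 0.996 ± 0.112. Dnajc5, a J protein of secretory vesicles, rose by 0.46 ± 0.10, and Dnajb9, of the endoplasmic reticulum, by 0.38 ± 0.09.

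The small heat shock proteins hold unfolding clients without ATP. In double KO hearts 3 of 10 fell, beside 14.4% of all genes. The share was 38.1% of the genes with a mean of at least 12, a level that Hspb8 did not reach. Hspb8 went from 10.42 ± 0.36 in WT to 9.36 ± 0.22 in Nkx2-5 KO and 8.92 ± 0.50 in double KO hearts, falls of 1.06 ± 0.23 (limma adjusted p = 0.0219) and 1.502 ± 0.227 (adjusted p = 0.000513). Hspb3, a muscle member of the family, fell by 0.92 ± 0.17 and 1.36 ± 0.17 in the same groups. Hspb7, of heart muscle, was lower in Nkx2-5 KO than in Tbx5 KO hearts by 0.59 ± 0.14.

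The cytosolic chaperonin, a ring that folds actin and tubulin, and prefoldin, which brings clients to it, had 9 of 15 genes lower and 0 higher in double KO hearts. Cct3 fell by 1.18 ± 0.14 (limma adjusted p = 8.83e-05), Cct7 by 0.96 ± 0.12 and Pfdn4 by 1.25 ± 0.20. Cct3 (-0.66 ± 0.14) and Cct7 (-0.48 ± 0.12) also fell in Nkx2-5 KO hearts. Of 15 mitochondrial chaperones and proteases, 4 fell in double KO hearts and 0 rose, including the Hsp90 of mitochondria, Trap1 (-0.73 ± 0.11), and the protease Htra2 (-1.14 ± 0.19).

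The endoplasmic reticulum list was mixed. In double KO hearts 12 of 27 genes fell, among them Creld2 (-1.10 ± 0.14), Dnajc3 and the disulfide isomerase Pdia6 (-0.98 ± 0.13), and 3 rose, Herpud1 (0.49 ± 0.14), Dnajb9 and the disulfide isomerase P4hb. In Nkx2-5 KO hearts Herpud1, which takes part in the disposal of misfolded proteins, rose by 0.89 ± 0.14 (limma adjusted p = 0.00575) and Dnajb9 by 0.44 ± 0.09, while Creld2 fell by 0.68 ± 0.14. Creld2 (-0.59 ± 0.14) and Manf (-0.46 ± 0.09, adjusted p = 0.0234), a secreted protein of the stress response, were the genes of the 141 called in Tbx5 KO hearts, where Hspa5 was -0.26 and not called.

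**Figure D3:**
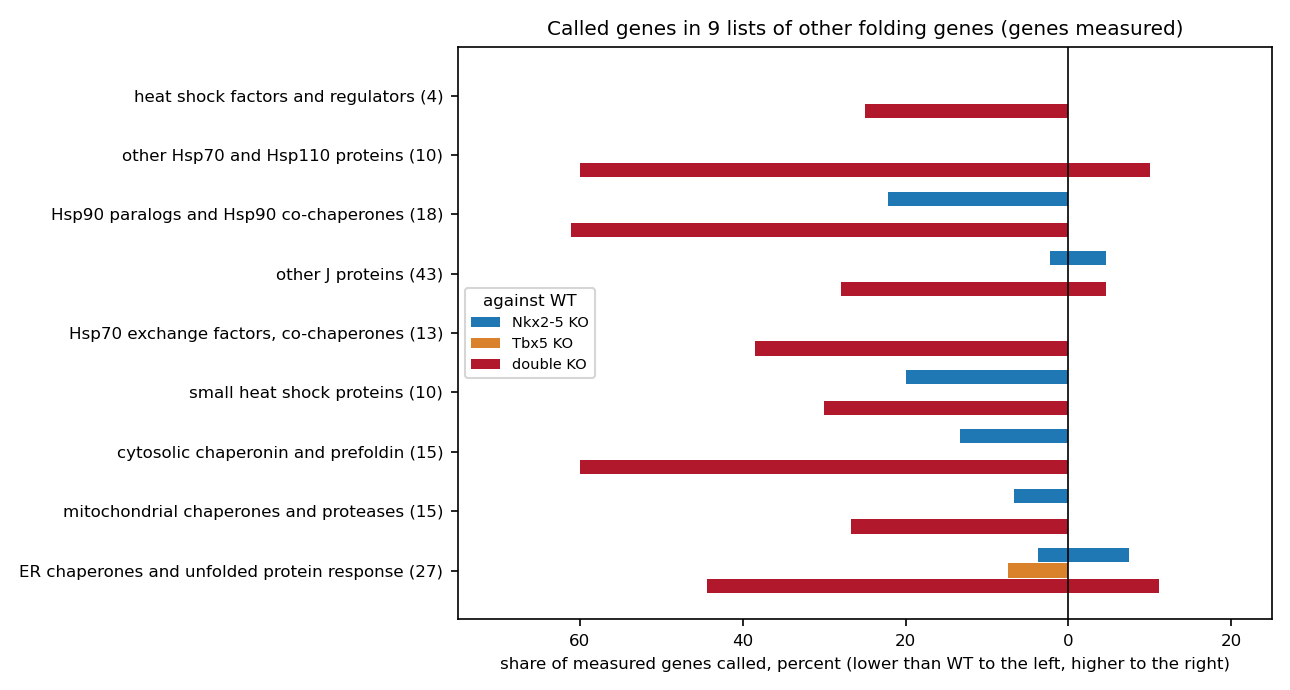
Share of measured genes called lower than WT (to the left of 0) or higher (to the right), in percent, in 9 lists of other folding genes for the 3 mutant groups; the number measured stands in brackets. In double KO hearts the bars run mainly to the left, with 11 of 18 Hsp90 paralogs and co-chaperones and 9 of 15 chaperonin and prefoldin genes lower.

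The genes whose pattern was most like that of Hsph1 were ranked by the mean absolute difference from it over the 12 arrays, after each gene was centred on its own mean. For the list of the nearest genes, predicted genes, RIKEN clones and small RNAs were left out. Ahsa1 came first, at 0.093, and then Uqcc2 (0.103), an assembly factor of respiratory complex III, and Prps1 (0.109), an enzyme of nucleotide synthesis. Rexo2 (0.110), an oligoribonuclease, and Wdhd1 (0.116), a replication factor, came next. Nme1 (0.117), Ndufb2 (0.122), a subunit of respiratory complex I, and Ddx39a (0.125), an RNA helicase, followed. Against WT, Ahsa1 was at -0.49 in Tbx5 KO, -0.93 in Nkx2-5 KO and -1.48 in double KO hearts, and Hsph1 at -0.49, -0.95 and -1.64. Over all 19937 genes, with none left out, the other measured members ranked far lower. Hspd1 was at place 1499, Dnaja1 at 2239, Hspa4 at 2575 and Dnajb1 last of them at 13247. Of the other folding genes in the lists, only the place of Ahsa1 is given here. The measure compares size as well as shape, so a gene with the same order of groups and smaller steps ranks low. The ranking is a description of these arrays.

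**Figure D4:**
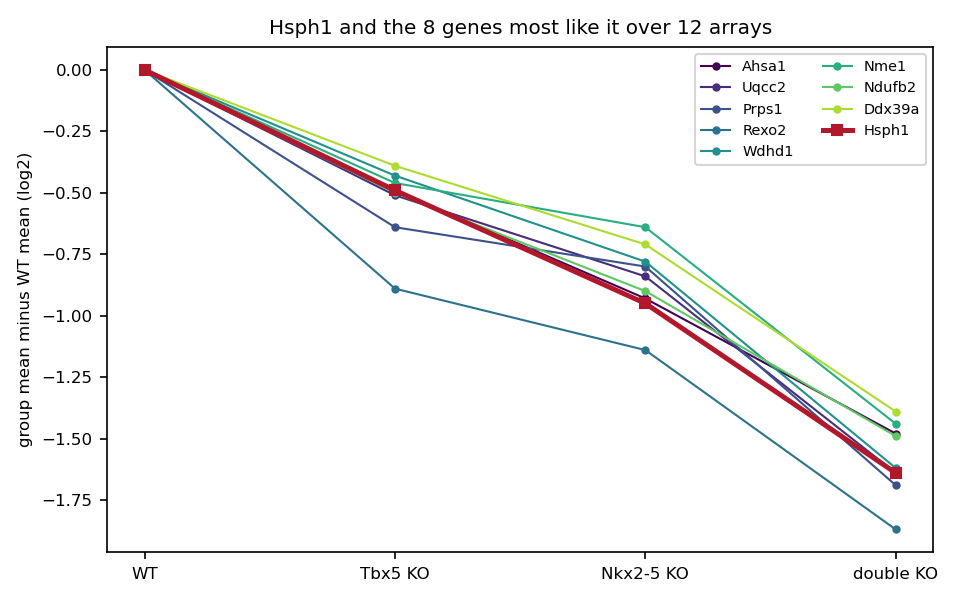
Group mean minus WT mean (log2, vertical axis) of Hsph1 and the 8 genes most like it, for WT, Tbx5 KO, Nkx2-5 KO and double KO hearts. Predicted genes, RIKEN clones and small RNAs were left out, and lines join the groups only to guide the eye. All 9 lines fall at each step, and in double KO hearts they lie between -1.39 (Ddx39a) and -1.87 (Rexo2).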

How the data were processed

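The authors deposited log2 expression values for each probe set, which ran from 3.21 to 14.7. For their normalization the software was not given in the sources used here. Per the labels' protocols, RNA came from a PicoPure isolation, was amplified by NuGEN Ovation and carried a biotin label. Of 35557 probe sets, 21789 carried 1 symbol, 1621 several and 12147 none, in the platform annotation. Of 19938 genes, 19856 matched RefSeq by Entrez number. No pair of arrays was identical (0 pairs). With limma 3.58.1 (lmFit, eBayes; R 4.3.3) all 12 arrays entered 1 model of 4 group means, two-sided, with 8 residual and 4.51 prior degrees of freedom, for 7 comparisons, after the code was tested on simulated data. No dim genes were removed. Nothing in the labels says which embryos were pooled, so p-values measure the spread between these arrays, and the 3 arrays a group limit the precision. Named genes are all members, up to 3 called genes a direction, list and comparison, of which some are printed, and the 8 genes most like Hsph1, without predicted genes, RIKEN clones and small RNAs. Members and lists were chosen with earlier results of these data known. Other lists of cell markers were endocardium, endoderm, neural, pharyngeal and proepicardium. Of these, double KO against WT gave, higher and lower, 0 and 3 of 8, 3 and 0 of 9, 2 and 1 of 7, 0 and 1 of 7, and 0 and 3 of 7. The shares of all genes were 9.05% higher and 14.4% lower. Alternatives were a further quantile normalization, arrays centred on their median, an intensity trend, array weights, only the arrays compared, a replicate block, the mean of probe sets, no dim genes and each array left out. The probe set with the lowest mean and that among genes of its own chromosome were chosen after seeing the data. Plots were drawn with matplotlib 3.10.9, and tables made with pandas 2.3.3 and numpy 2.4.6, in Python 3.11.15.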

Additional observations from a re-analysis of the deposited data

How the results depend on the processing

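Over the members, 1235 of the values under alternatives kept direction and call, 29 became called, 54 lost a call and 59 changed sign. The causes were not tested. A fit that leaves out 1 array has fewer arrays and also lacks the values of that array. Same-numbered arrays of different groups had correlations of their deviations from -0.27 to 0.211, with 3 of 18 over 0.1. For differently numbered arrays these ran from -0.26 to 0.261, with 9 of 36 over 0.1. Deviations from means of 3 arrays cannot settle whether the replicate numbers pair the arrays. With the replicate block, members called in double KO against WT numbered 4. The other 6 counts of members did not move under the block. In double KO against WT the count was also 2 after quantile normalization and 3 with only the arrays compared, 8 with centred arrays and with the trend, and 3 to 5 when 1 array was left out. In Nkx2-5 KO against WT it became 2 with centred arrays, 4 with the intensity trend and 2 with array weights. In Tbx5 KO against WT it became 1 under quantile normalization, the trend, array weights, only the arrays compared, the mean of probe sets and no dim genes, and 0 to 1 when 1 array was left out. In double KO against Nkx2-5 KO it became 2 with centred arrays, 3 with the trend, 2 with array weights and 2 without dim genes, and 1 to 2 when 1 array was left out. In double KO against Tbx5 KO it became 1 with only the arrays compared, 3 with centred arrays and 3 with the trend, and 1 to 2 when 1 array was left out. In Nkx2-5 KO against Tbx5 KO it became 1 under quantile normalization, 2 with array weights and 1 without dim genes, and 0 to 1 when 1 array was left out.

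Signs turned for values near 0 or with another probe set. With the lowest probe set, and equally with the one among genes of its own chromosome, Hspa8 was 0.031, 0.053 and 0.128 in Nkx2-5 KO, Tbx5 KO and double KO against WT, 0.096 and 0.075 in double KO against Nkx2-5 KO and Tbx5 KO, and 0.043 for the non-additive term. With both, Dnaja1 was 0.05 in double KO against WT, 0.302 against Nkx2-5 KO and 0.057 against Tbx5 KO, and the non-additive term of Hspe1 was -0.001. With the mean of probe sets, double KO against Nkx2-5 KO was 0.0 for Hspa8 and 0.148 for Dnaja1, and the non-additive term of Hspa8 was 0.009. Under quantile normalization the non-additive term was 0.004 for Hspa8, 0.015 for Hspa5 and 0.026 for Hsp90aa1, Hspa5 was 0.05 in Nkx2-5 KO against WT and 0.064 in double KO against Tbx5 KO, and Dnaja1 was 0.085 in double KO against Nkx2-5 KO. With array weights Hspa5 was 0.122 in Nkx2-5 KO against WT and Dnaja1 0.012 in double KO against Nkx2-5 KO. With centred arrays Dnajb1 was -0.007 in Tbx5 KO against WT, -0.052 in double KO against WT and -0.046 in double KO against Tbx5 KO. Leaving out 1 array turned these signs, with ranges over the 12 fits: Hspa8 -0.074 to 0.01 (Tbx5 KO against WT) and -0.051 to 0.033 (non-additive), Hspa5 -0.117 to 0.064 (Nkx2-5 KO against WT), -0.117 to 0.005 (double KO against Tbx5 KO) and -0.129 to 0.051 (non-additive), Hsp90aa1 -0.041 to 0.01 (non-additive), Hspe1 -0.061 to 0.002 (Nkx2-5 KO against Tbx5 KO), Dnaja1 -0.069 to 0.029 (double KO against Nkx2-5 KO) and -0.012 to 0.116 (non-additive), and Dnajb1 -0.048 to 0.178 (Tbx5 KO against WT) and -0.107 to 0.119 (double KO against Tbx5 KO).

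Centring arrays moved the median of all genes by -0.124 in double KO against WT, where 17.1% of calls were then higher, against 38.6%. In Nkx2-5 KO and Tbx5 KO against WT that share went from 41.5% to 24.4% and from 43.2% to 30.8%, and in double KO against Tbx5 KO from 26.7% to 13.6%. Genes called overall went from 884 to 2132 with array weights in Nkx2-5 KO against WT, from 461 to 933 in Tbx5 KO against WT, from 1109 to 2481 in double KO against Nkx2-5 KO (570 with only the arrays compared), from 476 to 1424 in Nkx2-5 KO against Tbx5 KO, and from 109 to 343 for the non-additive term (61 with the replicate block). Leaving out 1 array gave as few as 169, 212, 521, 254 and 48 in these, 264 for the non-additive term without double KO replicate 3, and 1300 of 2139 in double KO against Tbx5 KO. The number of arrays limits all values, and their signal over background was not measured.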
